A study of Mus musculus with 4 samples.

Results

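The genes described here encode the replication-dependent histones, and were taken as every entry whose symbol begins with Hist1h, Hist2h, Hist3h or Hist4h. They numbered 65 of the 20380 genes in a genome-wide CRISPR-Cas9 knockout screen. By histone type they comprised 6 H1 genes, 16 H2A genes, 18 H2B genes, 12 H3 genes and 13 H4 genes, against which the table holds 269 guides. Membership was set by name alone and no measured value was used to include a gene, though earlier results of these data were known.

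The screen compared MERVL-positive cells, sorted by reporter at day 5, with total cells. Each group has 2 libraries, which the titles call sequencing repeats. All cells were E14 mouse embryonic stem cells, an established line, with a tdTomato reporter of MERVL. This endogenous retrovirus is transcribed at the 2-cell stage of the mouse embryo, and a small fraction of cultured stem cells passes through a like state. They carried a lentiCRISPRv2 library, had been selected with puromycin, and are labelled as having no other treatment. About 500000 cells were sorted for a library of 130209 guides, or 3.84 sorted cells per guide. The table holds a single comparison for each gene without separate library values. Neither a spread between libraries nor the depth of a library can therefore be given, and expression of cell type markers was not measured.

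Replication-dependent histone genes are switched on as cells enter S phase and supply the proteins that wrap newly made DNA. Pairs of H2A, H2B, H3 and H4 form the core of the nucleosome, and H1 binds the linker DNA between nucleosomes. The genes lie in clusters, usually lack introns, and their mRNAs end in a stem-loop in place of a poly(A) tail. Many copies of a type are nearly identical in sequence, so a guide written for one gene may cut another. The guide sequences were not used here, and how many copies each guide matched was not tested.

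All 65 symbols are older names that matched 1 RefSeq gene each as a synonym in GRCm38.p6, which has the coordinates of mm10. The Hist1 cluster holds 52 of the genes on chromosome 13, the Hist2 cluster 9 on chromosome 3, the Hist3 cluster 3 on chromosome 11, and Hist4h4 stands alone on chromosome 6. RefSeq marks 1 of them, Hist3h2bb-ps, as a transcribed pseudogene, and the other 64 as protein coding.

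RefSeq promoter windows, from 250 bases before to 50 after a gene's start, show how closely the copies are packed. Windows were found for 59 of the genes. Many H2A and H2B genes stand head to head and share the DNA between them. The window below of the H2B gene Hist1h2bj, at chr13:22042948-22043247 on the plus strand, overlaps by 252 bases that of the H2A gene Hist1h2ag on the other strand. This pair is shown because, among pairs with more than 3 guides on at least 1 gene, it had the lowest mean log2 fold change. The window of the H4 gene Hist1h4k, at chr13:21750504-21750803 on the minus strand, is shown because it had the highest log2 fold change of all 65. Capitals mark CCAAT and TATAAA on either strand.
Hist1h2bj: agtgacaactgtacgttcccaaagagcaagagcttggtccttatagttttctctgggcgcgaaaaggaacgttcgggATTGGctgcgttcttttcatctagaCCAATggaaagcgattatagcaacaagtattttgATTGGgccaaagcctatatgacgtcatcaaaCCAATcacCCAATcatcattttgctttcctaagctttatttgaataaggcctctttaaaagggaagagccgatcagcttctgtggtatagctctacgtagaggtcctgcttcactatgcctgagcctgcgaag
Hist1h4k: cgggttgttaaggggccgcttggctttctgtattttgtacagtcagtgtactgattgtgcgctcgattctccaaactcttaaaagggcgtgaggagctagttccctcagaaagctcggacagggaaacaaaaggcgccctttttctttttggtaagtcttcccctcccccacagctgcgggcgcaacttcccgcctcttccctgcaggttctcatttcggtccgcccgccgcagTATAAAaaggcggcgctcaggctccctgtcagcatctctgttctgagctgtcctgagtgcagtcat

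The motif CCAAT, a common promoter element, stood 5 times in the Hist1h2bj window and not at all in that of Hist1h4k. TATAAA, the core of the TATA box, stood once in the Hist1h4k window and not in that of Hist1h2bj. The letters CCAAT were found on either strand in all windows of the H1, H2A, H2B and H3 types and in 3 of 12 H4 windows, against 37.4% of 32851 RefSeq windows in all. TATAAA was found on either strand in 58.3% of the 60 histone windows and in 13.6% of all windows. On the gene's own strand alone the shares were 50% and 8.32%, and for H2B windows the share was 25%. Where head-to-head windows overlap, a match on either strand can be counted for both genes. These are matches of letters, and the screen measured no promoter.

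The values that follow were deposited by the authors for each gene. The log2 fold change compares the abundance of the gene's guides between the groups. The header does not name the numerator. A positive value is read as more guides in MERVL-positive than in total cells, on the ground that the study's title links loss of Ints7 to active MERVL and that Ints7 stood at rank 157 of 22510 for positive change, as the authors' deposited table lists. That ground is the study's own result, and if the reading is wrong every direction turns. The guides up and guides down of a gene are those past the authors' own guide threshold for positive or negative change, which let through 37.4% and 38.0% of the guides of all genes.

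The authors' deposited table calls no histone gene at a false discovery rate of 0.05. Over all genes the share that passed was 0% for enrichment and 0.00491%, or 1 gene, for depletion. The lowest false discovery rate of a histone gene in the authors' deposited table was 0.738 for depletion and 0.985 for enrichment. At an unadjusted depletion p under 0.05 stood 9 of 65 histone genes, or 13.8%, where the share over all genes was 5.07%. At an unadjusted enrichment p under 0.05 stood 2 of 65, or 3.08%, where the share over all genes was 5.02%. The 9 genes on the depletion side were 4 of H2A, 3 of H2B and 2 of H3, with none of H1 or H4. With near-identical copies in the list, these genes cannot be counted as independent, and no test of the list was made.

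The median log2 fold change of the 65 genes was -0.07, beside -0.02 for all genes. Of the histone genes 40, or 61.5%, lay below 0, beside 52% of all genes. The distribution had a long lower tail, since the mean was -0.23 and the values ran down to -1.86 and up to 0.67. Among the lowest 5% of all genes, at or below -0.87, were 8 histone genes, 4 of them with 3 or fewer guides. Among the highest 5%, at or above 0.66, was Hist1h4k alone. Genes with few guides spread more widely, with a standard deviation over all genes of 0.85 for 1 to 3 guides and 0.46 for 6. Since 35.4% of histone genes but 1.75% of all genes had 3 or fewer guides, these 5% tails are not a like baseline for the list. Of the 269 guides, 111 were down, which is 41.3% (exact 95% binomial interval 35.3 to 47.4), and 87 were up, which is 32.3% (26.8 to 38.3). These intervals take guides as independent and cover counting error alone. With the list restricted to the 33 genes with 5 or more guides, the median was -0.01.

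The types differed in their medians, which were 0.09 for H1, -0.24 for H2A, -0.36 for H2B, -0.13 for H3 and 0.18 for H4. Values below 0 were held by 0 of 6 H1 genes, 13 of 16 H2A genes, 14 of 18 H2B genes, 9 of 12 H3 genes and 4 of 13 H4 genes. The 2 types of the H2A-H2B dimer thus had 27 of 34 genes below 0, and H3, outside the dimer, had 9 of 12. The medians of H2A, H2B and H3 all lay under those of H1 and H4. No test of the difference between types could be made, since the table has no value per library. With 5 or more guides required, the median was -0.08 for 9 H2A genes, -0.19 for 8 H2B genes and -0.11 for 2 H3 genes, beside 0.19 for 8 H4 genes. The medians of H2A, H2B and H3 thus stayed below 0 and that of H4 above, with H2A, H2B and H3 nearer to 0 than before. The H3 median lay between 2 genes on opposite sides of 0, Hist1h3a at 0.30 and Hist1h3g at -0.51.

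**Figure D1:**
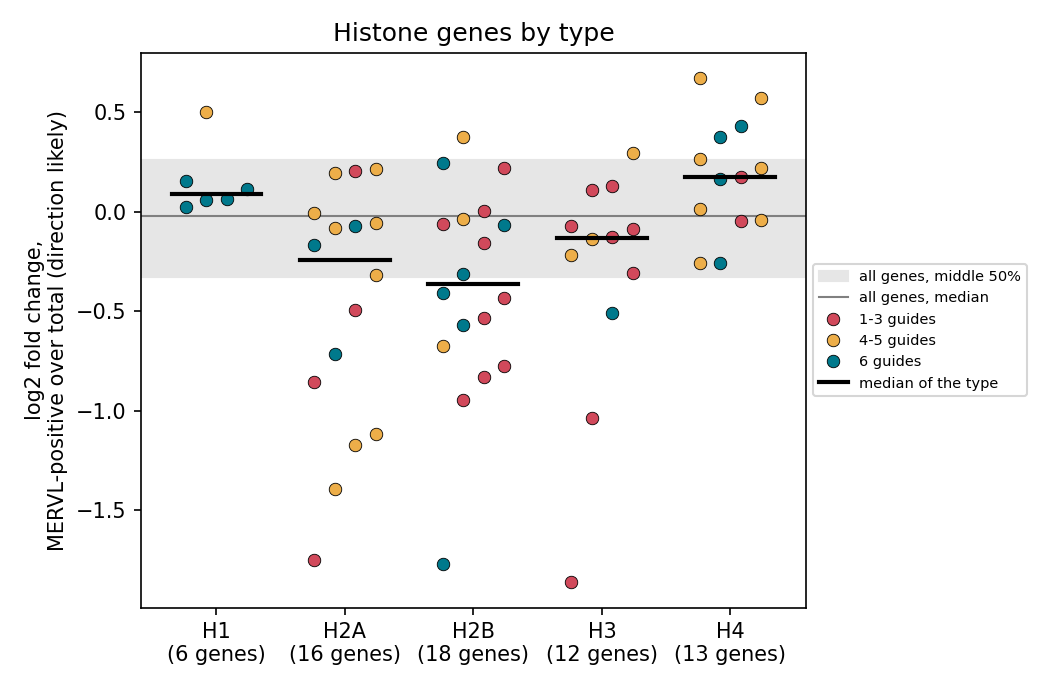
Each point is 1 histone gene, with its deposited log2 fold change on the vertical axis and its histone type on the horizontal axis. Colour gives the number of guides, black bars the median of the type, the grey band the middle 50% of all genes and the grey line their median. The H1 genes and most H4 genes lie above 0, and the values under -1 all belong to H2A, H2B and H3.

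The share of guides down was 46.3% of 67 for H2A (exact 95% interval 34.0 to 58.9), 52.9% of 70 for H2B (40.6 to 64.9) and 45.9% of 37 for H3 (29.5 to 63.1). For H1 it was 25.7% of 35 (12.5 to 43.3) and for H4 28.3% of 60 (17.5 to 41.4). The share of guides up was 20.9% for H2A (11.9 to 32.6), 32.9% for H2B (22.1 to 45.1), 24.3% for H3 (11.8 to 41.2), 34.3% for H1 (19.1 to 52.2) and 48.3% for H4 (35.2 to 61.6). Over all genes the shares were 38.0% down and 37.4% up. H2A had the lowest share of guides up of the 5 types and H4 the highest. Guides of 1 gene share a target, and guides of sister copies may do so, in which case the intervals are too narrow.

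**Figure D2:**
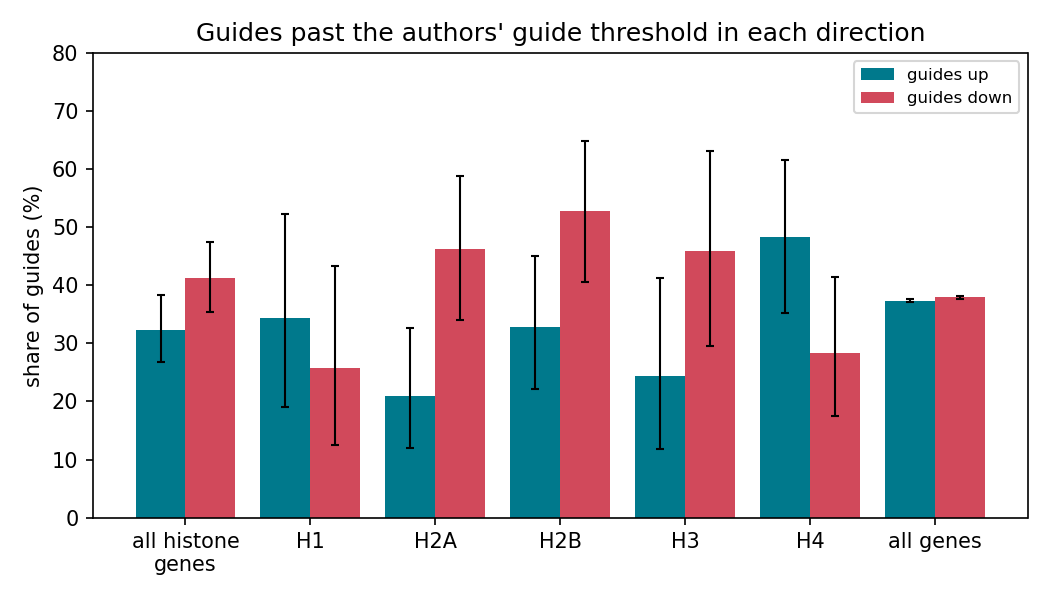
Bars give the share of guides up and down in percent for all histone genes, each histone type and all genes. Error bars are exact 95% binomial intervals that treat guides as independent. Guides down outnumber guides up for H2A, H2B and H3, with 46.3% against 20.9% for H2A, and guides up outnumber guides down for H4, with 48.3% against 28.3%.

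H2A forms a dimer with H2B and carries the lysine that Polycomb complexes ubiquitinate. Hist2h2aa1, on chromosome 3 from 96245497 to 96246052, stood at -1.17 on the log2 scale with a depletion p of 0.00148, the lowest among the histone genes, per the authors' deposited table. Its 5 guides split into 2 up and 3 down and its enrichment p was 0.0756 in the authors' deposited table, so its guides did not move one way. Hist1h2ag, on chromosome 13 from 22042478 to 22042949, had a value of -1.12 with 3 of 4 guides down, 1 up and a depletion p of 0.00227, as the authors' deposited table lists. Hist1h2ak, on chromosome 13 from 21753377 to 21753912, had 3 of 5 guides down, none up, a log2 fold change of -1.39 and a depletion p of 0.00979, from the authors' deposited table. The fourth was Hist1h2ah, with 3 guides, of which 2 were down and none up, a value of -0.85 and a depletion p of 0.0129, per the authors' deposited table. For these 4 genes the authors' deposited table lists false discovery rates between 0.738 and 0.886.

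The lowest H2A value, -1.75, belonged to Hist1h2ai, whose 2 guides were both down, and the authors' deposited table lists a depletion p of 0.0531, which misses 0.05. Another 2 genes rested on 1 guide each in the authors' deposited table, Hist1h2an at -0.50 with its guide down and Hist1h2ao at 0.20 with its guide neither up nor down. Hist1h2ae had the highest H2A value, 0.22, with 2 of 4 guides up, as the authors' deposited table lists. In the Hist2 cluster Hist2h2ab stood at 0.19 and Hist2h2ac at -0.16, and in the Hist3 cluster Hist3h2a stood at -0.08, from the authors' deposited table. Hist1h2aa, which encodes a testis variant, had a value of -0.71 with 4 of 6 guides down and a depletion p of 0.154, per the authors' deposited table. The 4 remaining H2A genes lay between -0.32 for Hist1h2ac and -0.0060 for Hist1h2ad, as the authors' deposited table lists. As ratios of MERVL-positive to total cells, the H2A genes ranged from 0.297 for Hist1h2ai to 1.16 for Hist1h2ae.

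H2B completes the dimer, and its C-terminal ubiquitin mark accompanies transcription. Hist2h2bb, on chromosome 3 from 96269700 to 96270192, had the lowest value of the type, -1.77, a ratio of 0.294, with 5 of 6 guides down and 1 up, from the authors' deposited table. Its depletion p was 0.00557 with a false discovery rate of 0.846, per the authors' deposited table. By log2 fold change it was the 71st lowest of the 20380 genes, and with 6 guides it was the best covered of the histone genes under -1. Hist1h2bc, which RefSeq places on chromosome 13 from 23684199 to 23692480, had 4 of 6 guides down, 1 up, a value of -0.41 and a depletion p of 0.0107, as the authors' deposited table lists. The third H2B gene, Hist1h2bq, rested on 1 guide, with a value of -0.78 and a depletion p of 0.0322, from the authors' deposited table.

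Single guides show how p and log2 fold change can part. The 1 guide of Hist1h2bl had a lower value than that of Hist1h2bq, -0.83, yet its depletion p was 0.311, per the authors' deposited table. For an entry with 1 guide the deposited depletion score is taken here as the place of that guide among all guides, from the most depleted on. It was 3.23% for Hist1h2bq and 31.1% for Hist1h2bl in the authors' deposited table, so guides were not ordered by fold change alone.

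Of the H2B genes, Hist1h2bp was highest, at 0.38, with 4 of 5 guides up and an enrichment p of 0.0900, as the authors' deposited table lists. Hist1h2bm, with 2 guides of which 1 was up and 1 down, had a value of 0.0031 and an enrichment p of 0.0307, from the authors' deposited table. Among the genes with 2 or 3 guides, Hist1h2bj stood at -0.95, Hist1h2bf at -0.54, Hist1h2bg at -0.43, Hist1h2be at -0.16, Hist1h2bk at -0.06 and Hist1h2bn at 0.22, per the authors' deposited table. Only Hist1h2bn of these 6 had no guide down, with 2 of 3 up, as the authors' deposited table lists. Hist2h2be had 4 of 6 guides down and a value of -0.57, from the authors' deposited table. The Hist3 genes were close to 0, with -0.04 for Hist3h2ba and -0.07 for the pseudogene Hist3h2bb-ps, per the authors' deposited table. The 3 remaining H2B genes ran from -0.68 for Hist1h2bh to 0.25 for Hist1h2ba, which encodes a testis variant, as the authors' deposited table lists.

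**Figure D3:**
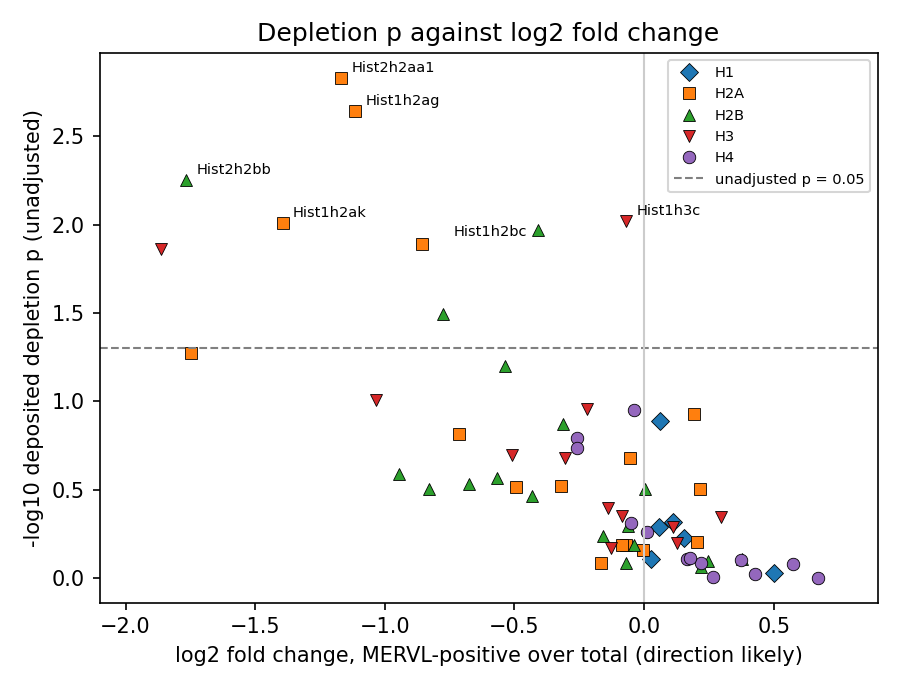
Each point is 1 histone gene, with the deposited log2 fold change on the horizontal axis and −log10 of the unadjusted depletion p on the vertical axis, and marker shapes give the type. The dashed line marks the threshold of 0.05, and 9 genes lie above it. Hist1h3c lies above the line at a log2 fold change of -0.07, while Hist1h2ai lies just under it at -1.75.

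H3 pairs with H4 and carries many of the lysine marks read by chromatin regulators. Its genes had a median of 3 guides, and 8 of 12 had 3 or fewer. Hist1h3f, on chromosome 13 from 23544052 to 23544954, had the lowest value of all 65 genes, -1.86, a ratio of 0.275, with 2 of 3 guides down, from the authors' deposited table. It was the 58th lowest of all genes by log2 fold change, and its depletion p was 0.0138, per the authors' deposited table. Hist1h3c, on chromosome 13 from 23745042 to 23745521, had a similar depletion p, 0.00949, with 1 of 3 guides down and a log2 fold change of -0.07, as the authors' deposited table lists. Its low p thus stood beside a gene value near 0.

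Hist1h3i had both of its 2 guides down, a value of -1.03 and a depletion p of 0.0977, from the authors' deposited table. Genes resting on 1 guide were Hist1h3d at -0.08 and Hist2h3c2 at -0.31, per the authors' deposited table. Hist1h3e, Hist1h3h, Hist2h3c1 and the 4-guide gene Hist2h3b lay between -0.14 and 0.13, as the authors' deposited table lists. The highest H3 value was that of Hist1h3a, 0.30 with 4 of 5 guides up, from the authors' deposited table. Hist1h3g, with 6 guides the best covered H3 gene, had 4 guides down, 1 up and a value of -0.51, per the authors' deposited table. The last H3 gene, Hist1h3b, stood at -0.22, as the authors' deposited table lists.

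H4 is the most conserved of the core histones, and its genes encode nearly one same protein. They had 9 of 13 values above 0. Hist1h4k, on chromosome 13 from 21750145 to 21750553, had the highest log2 fold change, 0.67, a ratio of 1.59, with 4 of 4 guides up, from the authors' deposited table. Its enrichment p was 0.0204, with a false discovery rate of 0.985, per the authors' deposited table. It was the only histone gene with 4 or more guides that all went one way. Hist4h4, on chromosome 6 from 136803993 to 136804431, had a value of 0.43 with 4 of 6 guides up, none down and an enrichment p of 0.316, as the authors' deposited table lists. Hist1h4i, chosen after its value was seen, stood at 0.57 with 3 of 4 guides up and 1 down, from the authors' deposited table.

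The low end of H4 was Hist1h4a at -0.26, with 4 of 5 guides down, next to Hist2h4 at -0.26 with 3 of 6 down, per the authors' deposited table. Hist1h4m had none of its 3 guides up or down and a value of 0.18, and the 1 guide of Hist1h4n gave -0.05, as the authors' deposited table lists. The 6 other H4 genes lay between -0.04 for Hist1h4j and 0.37 for Hist1h4c, from the authors' deposited table. None of the 8 histone genes in the lowest 5% of all genes was an H4 gene.

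Linker histone H1 compacts the chromatin fibre, and its genes are the least alike of the set. All 6 had values above 0, and none had an unadjusted p under 0.05 in either direction, per the authors' deposited table. Hist1h1e was highest, at 0.50 with 3 of 5 guides up and none down, as the authors' deposited table lists. The testis gene Hist1h1t had a value of 0.15 and Hist1h1b one of 0.11, from the authors' deposited table. Hist1h1d at 0.06, Hist1h1a at 0.06 and Hist1h1c at 0.03 lay close to 0, per the authors' deposited table. Hist1h1d had 3 guides up and 3 down, an enrichment p of 0.0556 and a depletion p of 0.128, as the authors' deposited table lists.

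Histone genes had fewer guides than most genes. Of them 29.2% had 6 guides, beside 79.8% of all genes, and 35.4% had 3 or fewer, beside 1.75% of all genes. The 23 genes with 3 or fewer guides had a median of -0.16 with 17 below 0, while the 357 such genes in the whole table, the histone genes among them, had a median of -0.09 with 199 below 0. Of the 49 guides of the 23 histone genes, 24 were down and 7 up, which is 49.0% (exact 95% interval 34.4 to 63.7) and 14.3% (5.94 to 27.2). Over all 752 guides of genes with 3 or fewer, 39.5% were down and 34.4% up. The 23 histone genes with 4 or 5 guides had a median of -0.04 with 37.7% of guides down and 39.6% up. The 19 with 6 guides had a median of -0.07 with 41.2% down and 33.3% up.

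Of the 9 genes with a depletion p under 0.05, 4 were among the 23 with 3 or fewer guides, or 17.4%, where 5.32% of all genes with that many guides passed. The other 5 were among the 42 with 4 or more, or 11.9%, where 5.07% of all such genes passed. The part that cutting at several copies plays in these values was not tested.

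In the head-to-head H2A and H2B pairs that promoter windows could show, the genes often differed in value. By overlapping promoter windows on opposite strands, 9 such pairs were found, all in the Hist1 cluster, with 164 to 281 bases between the starts. Windows were found for 15 of the 18 H2B genes, so a pair whose H2B gene lacked a window could not be found, in Hist1 or elsewhere. By gene coordinates, Hist2h2ac also lies next to Hist2h2be, Hist1h2ac next to Hist1h2bc and Hist3h2a next to Hist3h2bb-ps. All of these genes lay below 0, at -0.16 and -0.57, -0.32 and -0.41, and -0.08 and -0.07. Whether they stand head to head was not examined, and the counts that follow leave them out. Of the 9 pairs, both genes lay below 0 in 4, the genes lay on opposite sides of 0 in 5, and none had both above. The lowest pair was Hist1h2ai at -1.75 with Hist1h2bl at -0.83, on 2 and 1 guides, from the authors' deposited table. Next came Hist1h2ag at -1.12 with Hist1h2bj at -0.95, on 4 and 3 guides, per the authors' deposited table. Hist1h2ak and Hist1h2bn were farthest apart, at -1.39 and 0.22, as the authors' deposited table lists. The pair of testis variants also lay apart, with Hist1h2aa at -0.71 and Hist1h2ba at 0.25 on 6 guides each, from the authors' deposited table.

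**Figure D4:**
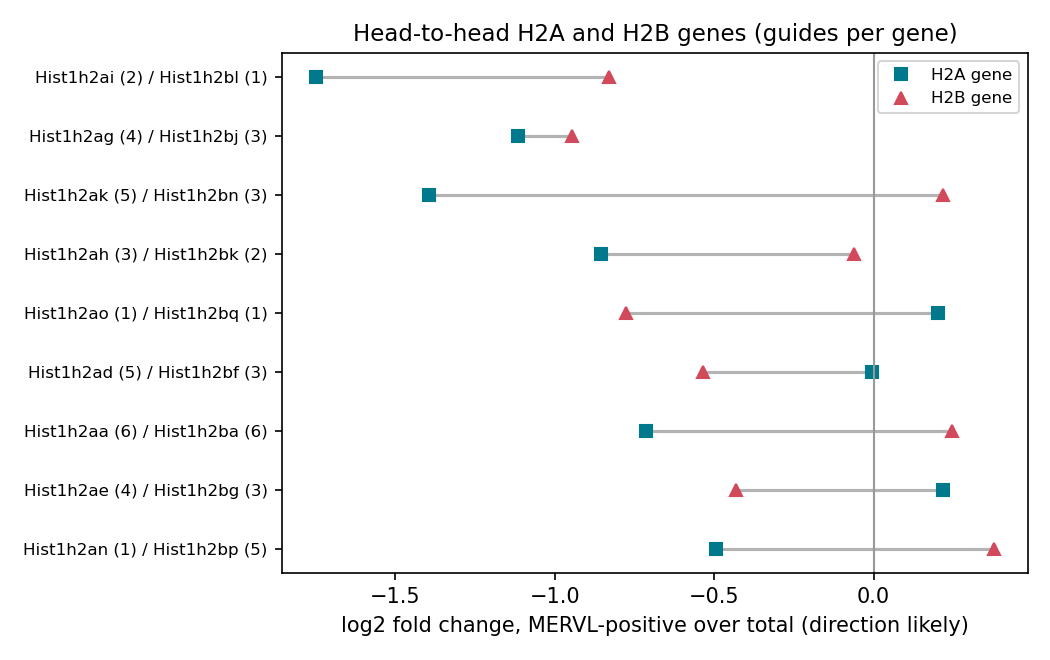
Each row is 1 head-to-head pair found by promoter windows. Squares give the deposited log2 fold change of the H2A gene and triangles that of the H2B gene, with guides per gene in brackets. Rows run from the lowest pair mean at the top. In 5 of the 9 rows the line between the 2 genes crosses 0.

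Other genes of histone supply were taken from 4 lists, of which 54 genes were in the table and 5 had no entry under the symbol used. Those 5 were all from the list of replication-independent variants. The replication-independent histone variants, which replace the S-phase histones outside replication, had a median of -0.15 over 15 genes, with 10 below 0. H3f3a, one of the pair of genes for the variant H3.3, stood at -1.64 on the log2 scale, with 4 of 5 guides down, 1 up and a depletion p of 0.0179, per the authors' deposited table. H2afy, which encodes macroH2A1, a variant of silent chromatin, had a value of -0.63 with 3 of 5 guides down, 1 up and a depletion p of 0.0487, as the authors' deposited table lists. The highest of this list was Hils1, a spermatid linker histone, at 0.42, from the authors' deposited table. The second H3.3 gene, H3f3b, chosen after its value was seen, stood at -0.74 with 4 of 6 guides down and a depletion p of 0.174, per the authors' deposited table. In this list 2 of 15 genes had a depletion p under 0.05 and none an enrichment p under 0.05, where the shares over all genes were 5.07% and 5.02%.

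The genes that transcribe histone genes and process the 3′ ends of their mRNAs had a median of -0.05 over 20 genes, with 12 below 0. At an unadjusted depletion p under 0.05 stood 1 of the 20, which is near the 5.07% of all genes, and none stood at an enrichment p under 0.05. It was Srrt, which encodes ARS2, a partner of the cap-binding complex, with a log2 fold change of -0.74, 6 of 6 guides down and a depletion p of 0.0128, as the authors' deposited table lists. Eri1, the exonuclease that trims the histone stem-loop, was lowest at -1.0, with 3 of 6 guides down, 1 up and a depletion p of 0.211, from the authors' deposited table. Lsm10, a subunit of the U7 snRNP that guides histone mRNA cleavage, was highest at 0.54 with 4 of 6 guides up, per the authors' deposited table. The stem-loop binding protein Slbp, chosen after its value was seen, stood at -0.19, as the authors' deposited table lists. Among activators of histone gene transcription, also chosen after their values were seen, Npat stood at -0.16, Hinfp at 0.20 and Casp8ap2 at 0.37, per the authors' deposited table.

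Decay factors of histone mRNA had a median of -0.07 over 7 genes, with no unadjusted p under 0.05. Their values ran from -0.51 for the decapping enzyme Dcp2 to 0.81 for the uridylyltransferase Zcchc11, from the authors' deposited table. Histone chaperones, importers and related supply genes outside CAF-1 and HIRA had a median of 0.06 over 12 genes. Nap1l1, an H2A-H2B chaperone, had the highest value, 1.05, with 5 of 6 guides up, 1 down and an enrichment p of 0.0151, per the authors' deposited table. Nasp, a chaperone of H3, was lowest at -0.89 with 4 of 5 guides down and a depletion p of 0.153, as the authors' deposited table lists. Of these 12, 1 had an enrichment p under 0.05 and none a depletion p under 0.05, where the shares over all genes were 5.02% and 5.07%. With so few genes in the decay and supply lists, such counts say nothing about either list.

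**Figure D5:**
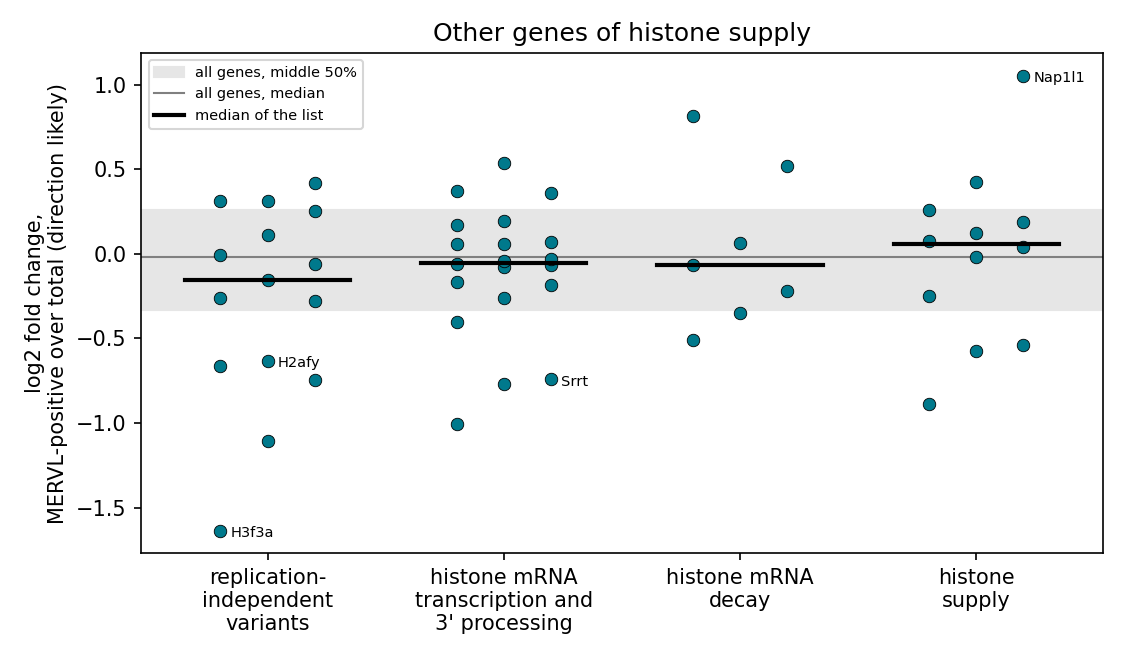
Each point is 1 gene of the 4 lists, with the deposited log2 fold change on the vertical axis, black bars for list medians, the grey band for the middle 50% of all genes and the grey line for their median. Named points have an unadjusted p under 0.05 in one direction. H3f3a lies lowest at -1.64 and Nap1l1 highest at 1.05.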

How the data were processed

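The screen measured guide abundance in genomic DNA of 2 MERVL-positive and 2 total libraries. The authors deposited 1 gene table, with MAGeCK and mm10 named in the submitters' processing notes, without version or settings. For each of 22510 entries and each direction it holds a score, a p-value and its false discovery rate, per the file headers. The authors deposited a log2 fold change per entry in 2 identical columns; the base is that of MAGeCK and is not stated in the header. Depth per library is unknown, and how guides were combined into the gene value is not stated. The titles name no separate cultures, so the deposited p-values may measure technical spread.

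By name, the entries are 20380 genes, 1132 microRNAs and 998 non-targeting guides. Medians, counts and exact 95% binomial intervals were computed with pandas 2.3.3 and scipy 1.17.1. The summaries were tested on lists of genes drawn at random from the table, with a known shift added. Such lists do not mimic near-identical copies with few guides, so the test does not show that the intervals hold for the histone genes. Deposited p-values and false discovery rates were used at 0.05. No test was added. Positions, names and promoter windows came from RefSeq for GRCm38.p6. The members and lists were chosen with earlier results of these data known. Genes named are the histone genes with an unadjusted p under 0.05, the highest and lowest per type, all H1 genes, all genes outside Hist1, those with 3 or fewer guides, those with all of 4 or more guides one way, and, per list, those with an unadjusted p under 0.05 and the extremes. Others in the text were chosen after their values were seen.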

Additional observations from a re-analysis of the deposited data

How the results depend on the processing

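The alternatives were judged against binomial intervals of the medians and guide shares, and counts against 1.5 times the reported count. Of 40 recomputed values 29 stayed within these bounds, and every type median kept its sign. For H1 neither could have come out otherwise, since its interval, 0.03 to 0.50, spans all 6 values. The same 6 genes all have 5 or more guides, and H3 with 5 or more guides rested on 2 genes. The intervals also take near-identical copies as independent, so the tally is a description and no measure of robustness. The mean of the 65 log2 fold changes was -0.23, outside the interval of their median, which ran from -0.22 to 0.0031. The count of 9 of 65 genes with an unadjusted depletion p under 0.05 became 5 of 65 at a threshold of 0.01. It was 4 among the 33 genes with 5 or more guides and 5 among the 42 with 4 or more. These filtered lists are smaller, so a lower count there is not by itself a lower share. The 5 of 42 are 11.9%, where 5.07% of all genes with 4 or more guides passed. The count of 2 of 65 for enrichment became 0 at 0.01, 5 at 0.10 and 1 by the first 5% of ranks. It was 0 among the 33 genes with 5 or more guides and 1 among the 42 with 4 or more. Shares over all genes at 0.01 and 0.10 were not computed here. Among genes with 3 or fewer guides, 14.3% of guides were up and 49.0% down. The filter on 4 or more guides, the restriction to 3 or fewer and the removal of the pseudogene were chosen after seeing the data. One value per group of identical proteins was not run, as protein sequences were not used here. No paired analysis was possible because the table holds no value per library. Leaving out a library was likewise not run. Depth per library is unknown, and at 3.84 sorted cells per library guide a gene without a call may still have had an effect.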

Other observations

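The Hist1 genes lie in 2 blocks on chromosome 13, one from 21715711 to 22043658 with 21 genes and one from 23531044 to 23934913 with 31. The median log2 fold changes of the blocks were close, -0.05 and -0.07. By type they differed for H2A, with a median of -0.99 over 6 genes in the first block and -0.06 over 6 in the second. Of the guides of these genes, 11 of 16 were down and 1 up in the first block, while 12 of 30 were down and 9 up in the second. The first block also had fewer guides per gene, and 4 of its 6 H2A genes had 3 or fewer, while none of the 6 in the second block did. H2B did not follow, with medians of -0.06 over 7 genes and -0.41 over 7. H4 was above 0 in both blocks, at 0.18 over 5 genes and 0.19 over 6. These groupings were chosen after the values were seen, and no difference between blocks was tested.

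The 9 Hist2 genes had a median of -0.26, with 22 of 42 guides down and 10 up. Their H2A, H2B, H3 and H4 genes lie within chromosome 3 from 96219885 to 96270192, and the lowest and highest values were those of Hist2h2bb at -1.77 and Hist2h2ab at 0.19 in the authors' deposited table.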
